A study of Mus musculus with 8 samples.

Results

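The genes described here are 40 genes of DNA replication and of the G1/S step of the cell cycle, chosen by name. All 40 had a probe set annotated to that single symbol on the tumour arrays, with 87 probe sets among 18194 genes in all. On the arrays of virus-infected liver 37 of them did, with 65 probe sets among 12394 genes; Gins2, Gins3 and E2f2 were measured in the tumours alone.

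A cell enters S phase when cyclin E kinase and E2F factors switch on the genes for copying DNA. The origin recognition complex, Cdc6 and Cdt1 load the Mcm2 to Mcm7 ring onto origins, Cdc45 and the GINS complex turn it into an active helicase, and polymerases work on the opened strands with the sliding clamp Pcna. Resting hepatocytes of adult liver rarely enter this programme, whereas regenerating liver and liver tumours do.

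All animals were p53-/- mice on a C57BL/6J background. The tumours were 6 hepatocellular carcinomas (HCC), each on its own array, that HBs transgenic animals carried at an age of 12 to 15 months: 3 from mTERC+ mice, which carry the telomerase RNA gene, and 3 from mTERC- mice, which lack it. The livers were taken 48 hours after intravenous injection of adenovirus (Ad) at 2e+10 PFU (plaque-forming units), coding for TRF2DBDM, a form of the telomere protein TRF2, or for GFP as the control, with RNA pooled from 3 mice on 1 array per group. Which promoter drives HBs, and the sex of the animals, is not stated in the sources used. No age is given here for the virus-infected mice. Hepatocytes is the labelled tissue, and the tumours also held signal of other cell types, so fewer cycling cells and less RNA per cycling cell cannot be told apart.

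The hepatocyte marker Alb read 38450 to 53965 in the tumours. In the livers, whose arrays were scaled separately, it read 8672 to 11361, so the levels are not compared. The median signal was 54.5 to 59.4 on 5 tumour arrays and 75.1 on mTERC- tumour 2, whose 3'/5' ratio of the Gapdh control was 13.8 against 0.983 to 1.18 on the others. P-values measure the spread between these 6 tumours. Signals below are MAS5 intensities, which compare the same probe set between arrays and not one gene with another.

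E2F factors bind sites whose cores were searched for as TTCCCGC and TTGGCGC, on both strands, in RefSeq promoter windows from 250 bases before to 50 after the start. Of the 31 members with a window, 16 (51.6%) held at least 1 core, against 7.79% of all 27025 genes with a window; the windows of members had a median GC content of 58.3%, against 52.7% over all windows. A match is a string of letters, not a shown binding site. The 250 bases before the start are printed for 5 members named in the results below, with cores in capitals. They are genes of the helicase, of the polymerase alpha complex and of maintenance methylation. By the probe set used, all 5 had higher means in mTERC- tumours, and all but Prim1 were lowest in mTERC+ tumour 3.
Mcm5 (GRCm38.p6, chr8:75109259-75109508, plus strand): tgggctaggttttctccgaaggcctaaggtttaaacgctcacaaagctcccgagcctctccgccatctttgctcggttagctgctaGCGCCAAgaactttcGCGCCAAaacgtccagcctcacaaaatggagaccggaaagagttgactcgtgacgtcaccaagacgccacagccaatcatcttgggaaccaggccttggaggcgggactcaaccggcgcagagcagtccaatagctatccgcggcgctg
Mcm6 (GRCm38.p6, chr1:128359706-128359955, minus strand): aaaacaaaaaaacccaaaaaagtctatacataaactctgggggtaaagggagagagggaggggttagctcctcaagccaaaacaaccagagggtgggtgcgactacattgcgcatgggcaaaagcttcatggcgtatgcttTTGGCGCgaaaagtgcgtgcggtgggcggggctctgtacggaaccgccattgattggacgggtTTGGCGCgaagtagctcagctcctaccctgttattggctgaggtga
Pola1 (GRCm38.p6, chrX:93632156-93632405, minus strand): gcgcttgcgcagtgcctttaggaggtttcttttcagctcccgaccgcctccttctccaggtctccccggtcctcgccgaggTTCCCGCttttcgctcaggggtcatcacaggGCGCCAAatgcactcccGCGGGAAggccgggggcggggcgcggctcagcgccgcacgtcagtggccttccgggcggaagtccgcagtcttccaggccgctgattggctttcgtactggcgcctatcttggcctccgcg
Prim1 (GRCm38.p6, chr10:128014965-128015214, plus strand): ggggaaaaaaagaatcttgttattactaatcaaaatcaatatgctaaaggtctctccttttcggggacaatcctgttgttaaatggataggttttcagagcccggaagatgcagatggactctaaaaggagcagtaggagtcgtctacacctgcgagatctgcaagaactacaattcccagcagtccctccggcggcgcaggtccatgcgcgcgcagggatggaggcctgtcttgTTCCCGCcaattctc
Uhrf1 (GRCm38.p6, chr17:56303087-56303336, plus strand): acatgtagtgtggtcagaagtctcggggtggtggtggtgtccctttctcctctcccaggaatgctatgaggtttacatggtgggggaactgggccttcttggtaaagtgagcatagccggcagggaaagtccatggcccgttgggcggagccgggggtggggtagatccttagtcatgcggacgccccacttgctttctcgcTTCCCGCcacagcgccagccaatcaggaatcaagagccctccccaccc
Mcm5 and Mcm6 each held 2 cores before the start, both TTGGCGC, read on the minus strand of the window in Mcm5 and on its plus strand in Mcm6. Pola1 held 3 before the start, and Prim1 and Uhrf1 held 1 TTCCCGC core each; a second window of Uhrf1, at another start, held neither core. A core on the minus strand appears as its reverse complement. The printed windows were chosen after the values were seen. Each holds a core, so they do not show how often members with such values hold one. The window of Mcm2 held no core, and the cores of Mcm3 lay after the start. The 5 members with a window whose range among the tumours was widest were Mcm10, Rfc3, Uhrf1, Pola2 and Ccne1. Of these, Rfc3 and Uhrf1 held a core. The windows of Cdc45, Rfc5, Rrm2 and Ccne1, whose differences are among the larger ones below, held neither core.

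The first comparison set mTERC- against mTERC+ tumours, that is, carcinomas that arose without or with telomerase RNA. No member passed an adjusted p below 0.05 in limma (0 of 38 tested, with 1 at an unadjusted p below 0.05), where 0.00835% of all genes passed adjusted and 5.04% unadjusted. Tyms and Ccne2 lay under the level filter and were not tested. Of the 38 members, the mean of 29 was higher in mTERC- tumours, that of 9 lower, beside 51.4% higher over all genes. Their median log2 difference was 0.19, beside 0.02 over all genes. In 5 members all mTERC- tumours lay above all mTERC+ tumours, against 5.75% of all genes, and in 0 members below, against 4.39%. Replication genes rise and fall together in cycling cells, so these counts are not counts of independent genes.

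Differences of the size seen could not be resolved with 3 tumours per group: the 95% interval reached between 0.76 and 1.32 to either side of a member's log2 difference, with a median of 0.99. In 37 of 38 members that interval included 0. The neutrophil marker sum was 9011 to 21963 in mTERC- and 389 to 2976 in mTERC+ tumours, with all 7 tested markers higher. All 10 macrophage markers had lower means in mTERC- tumours, with summed signals of 10830 to 16667 against 10219 to 53621, and so did 8 of 10 endothelial markers, with sums of 1399 to 1982 against 1662 to 3164. The part of these cells in the values of the members was not tested.

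**Figure D1:**
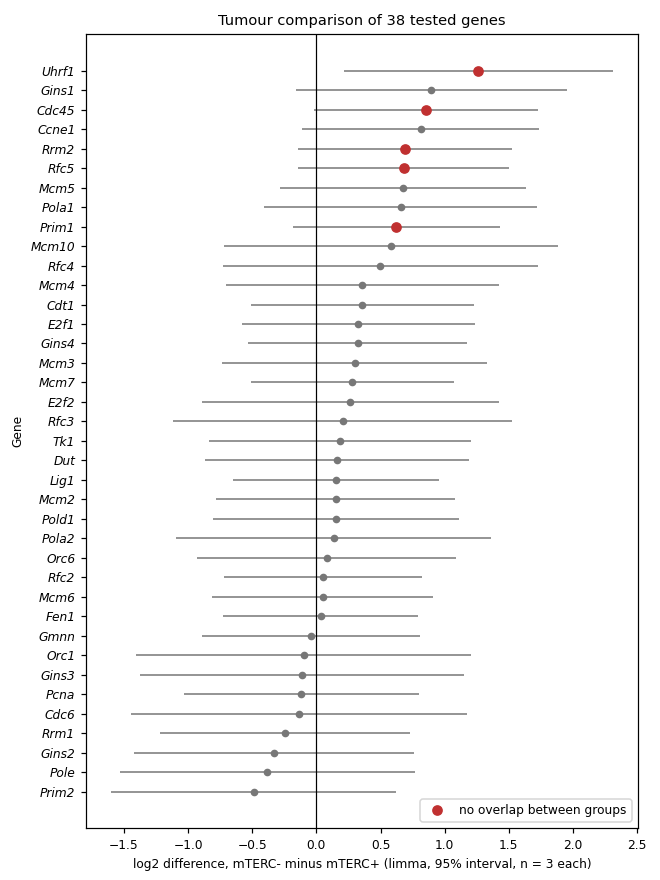
Log2 difference (x axis, mTERC- minus mTERC+, 3 tumours each) of the 38 tested genes, with 95% intervals from limma; red points mark the 5 genes whose groups did not overlap. The interval of Uhrf1 alone lies wholly above 0.

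Among the G1/S members, Ccne1, E2f1 and E2f2 had higher means in mTERC- tumours, as did Uhrf1, which is grouped with them here. Uhrf1, which guides DNA methylation onto freshly copied DNA, read 126.9, 232.7 and 142.9 in mTERC- tumours 1, 2 and 3 and 46, 105 and 17.8 in mTERC+ tumours 1, 2 and 3. The groups did not overlap, and the log2 difference was 1.26 (SE 0.49, n = 3 each), or 2.40-fold. Adjusted over all genes the p was 0.953 in limma, and 0.527 to 0.999 over the alternatives. Its other probe set above the filter went the other way, at a log2 difference of -0.37, and the mean of both gave 0.45.

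Ccne1, the cyclin E that drives entry into S phase, read 205.8, 420.6 and 339.3 in mTERC- tumours against 203.1, 249.4 and 79.2 in mTERC+ tumours. The groups overlapped through mTERC- tumour 1, and the log2 difference was 0.81 with an SE of 0.43 (adjusted p = 0.953, limma). Its second probe set gave 0.17 and the mean of both 0.49. E2f1, an activating E2F factor, read 241.8, 213.5 and 106.5 against 126.1, 210.7 and 90.9. That is a difference of 0.33 (SE 0.43), smaller than its error. E2f2, a related activator, spanned 21.5 to 84 with a difference of 0.26. Ccne2, the second cyclin E, was under the level filter, with 89.8 in mTERC- tumour 2 and 3.2 to 30.9 elsewhere.

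The helicase core, Mcm2 to Mcm7, had a higher mean in mTERC- tumours for all 6 genes, by log2 differences of 0.05 (Mcm6) to 0.68 (Mcm5), none past the threshold and with overlapping groups in each. The other probe sets of Mcm5 above the filter gave -0.48 and -0.04, and the mean of its probe sets 0.05. Mcm2 read 174, 95.8 and 269.7 in mTERC- and 150.2, 221 and 94.1 in mTERC+ tumours. Mcm3 read 177.2, 227.7 and 128.2 against 140.9, 295.7 and 50.6. Mcm4 read 164.8, 124 and 175.2 against 151.3, 226.8 and 31.5. In these 3 genes the highest or second highest value came from mTERC+ tumour 2 and the lowest from mTERC+ tumour 3.

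Mcm5 read 242.5, 374.5 and 192.9 against 122.1, 311.7 and 84.1. Mcm6 read 753, 636.4 and 1229.9 against 967.1, 1179.3 and 461.1. Mcm7 read 585.6, 770.3 and 1126.5 against 721.8, 835.9 and 458.8. By the probe set used, each of the 6 genes was thus lowest in mTERC+ tumour 3, Mcm2 by a margin of 94.1 against 95.8. With quantile normalization or median centring 5 of 6 were. Other probe sets above the filter were not all lowest there. One of Mcm2 was lowest in mTERC+ tumour 2 (55.2), one of Mcm5 in mTERC- tumour 2 (8.6) and one of Mcm6 in mTERC- tumour 3 (12.9). Those of Mcm3 and Mcm7 were lowest in mTERC+ tumour 3 in some cases and elsewhere in others. Without mTERC+ tumour 3 the log2 differences of Mcm2, Mcm3, Mcm4 and Mcm6 were -0.11, -0.21, -0.23 and -0.34, and those of Mcm5 and Mcm7 were 0.35 and 0.04.

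Loading of that ring onto origins depends on Orc1, Orc6, Cdc6 and Cdt1, with Gmnn (geminin) as the inhibitor of Cdt1. Of these 5 genes 2 had a higher and 3 a lower mean, between -0.14 and 0.36. Cdt1 read 546.6, 315.3 and 281 in mTERC- against 345.4, 373.8 and 162.7 in mTERC+ tumours, at a log2 difference of 0.36 (SE 0.41). Gmnn read 173.8, 225.3 and 165.8 against 317.9, 171.5 and 128.9. Its mean level was nearly equal in both groups (-0.04, SE 0.40), while 1 mTERC+ tumour held the highest value. Cdc6 read 69.2, 46.7 and 28.6 against 112.1, 15.1 and 62.8, close to the median of the arrays. Orc1 spanned 19 to 87.7 and Orc6 53.8 to 200.2, each with overlapping groups.

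Helicase activation genes differed in both directions, from -0.33 (Gins2) to 0.90 (Gins1). Cdc45, the partner that completes the active helicase, read 179.8, 146.9 and 141.2 in mTERC- and 63.5, 84.9 and 66.9 in mTERC+ tumours. The groups did not overlap, with means of 156 ± 20.8 and 71.8 ± 11.5 (SD, n = 3 each). In log2 it was 0.86 higher, with an SE of 0.41 (adjusted p = 0.953, limma). Unlike the helicase core, its lowest tumour was mTERC+ tumour 1, and without mTERC+ tumour 3 the difference was 0.83. Its second probe set lay below the filter, at a difference of 0.06.

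Gins1, a GINS subunit, read 134.9, 187.7 and 282.4 against 103.8, 189.9 and 27.4, at a difference of 0.90 (SE 0.50). The groups overlapped, and without mTERC+ tumour 3 it was 0.38. Gins4 read 474.2, 354.8 and 257.8 against 433.5, 264.3 and 179.1, a difference of 0.32 (SE 0.40). Gins2, Gins3 and Mcm10, the last a loader of polymerase alpha, had differences of -0.33, -0.11 and 0.58. Mcm10 ranged from 7.4 to 267.7, and both extremes were mTERC+ tumours.

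Among polymerase and primase genes, Prim1, the catalytic primase subunit, read 191.3, 179.2 and 194.1 in mTERC- tumours, 188 ± 7.92, and 107.7, 92.2 and 136.8 in mTERC+ tumours, 112 ± 22.6 (SD, n = 3 each). The groups did not overlap, and the log2 difference was 0.62 with an SE of 0.38 (adjusted p = 0.953, limma); its second probe set gave 0.53. Over the alternatives it stayed between 0.52 and 0.76. Pola1, the polymerase alpha catalytic subunit, read 90.6, 170.2 and 63.2 against 50.5, 67.3 and 41.4, at 0.66 (SE 0.50), with a small overlap.

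For the partner subunits, Prim2, the large primase subunit, had a lower mean, at -0.49 (SE 0.52), and Pola2 read 92.3, 301.5 and 144.5 against 277.7, 249.4 and 31.6, at 0.13 (SE 0.57). Pold1, of the lagging-strand polymerase delta, read 146.8, 437.7 and 126.5 against 131.9, 208.4 and 215.7, with the highest value in mTERC- tumour 2. Pole, of the leading-strand polymerase epsilon, read 14.9 in that same tumour and 76.7 to 117.3 in the others. The part of the Gapdh ratio of that array in these values was not tested.

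Pcna, the sliding clamp, read 2725, 1568.7 and 3750 in mTERC- and 2919.1, 4668.8 and 1502.4 in mTERC+ tumours. The groups overlapped fully, at -0.12 (SE 0.43), and the lowest value was again mTERC+ tumour 3. Of its loader, Rfc5 read 278, 279.6 and 232.3 against 94.5, 218.6 and 163.9. Its groups did not overlap, and the log2 difference was 0.68 with an SE of 0.39 (adjusted p = 0.953, limma). Rfc2 read 430.5, 377.5 and 631.3 against 342.2, 469.6 and 570.7, a difference of 0.05 (SE 0.36). Rfc4 read 101.9, 109 and 75.9 against 110.1, 4.9 and 105.4, and its difference of 0.50 rested on mTERC+ tumour 2, without which it was -0.14. Rfc3 read 16.8 in mTERC- tumour 2 and 83.1 to 337.2 elsewhere; its difference of 0.21 was 1.11 without that tumour.

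Next come the genes that finish Okazaki fragments. Fen1, the flap nuclease, read 425, 575.2 and 350.1 against 427.7, 534.8 and 348.5. Lig1, the replicative ligase, read 255.8, 184.7 and 388 against 226.8, 263.5 and 217.9. Their differences were 0.03 (SE 0.36) and 0.15 (SE 0.38), and from the lowest to the highest tumour they spanned 0.67 and 0.95 in log2, against a median span of 1.515 over all tested members and 1.453 over all genes. A second probe set of Fen1 gave the same difference of 0.03 but varied more, between 42.3 and 156.5.

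Of the genes that supply deoxynucleotides, Rrm2, the regulated subunit of ribonucleotide reductase, read 304.9, 349.3 and 626.1 against 275.6, 297.4 and 166.1. The groups did not overlap, at 0.69 with an SE of 0.39 (adjusted p = 0.953, limma), while its other probe sets above the filter gave -0.36 and 0.39. Rrm1, its large subunit, read 284.9, 83.7 and 344.3 against 337.9, 238.2 and 197.4, at -0.24 (SE 0.46) and at 0.28 without mTERC- tumour 2; its other probe set above the filter gave 0.71. Tk1, the S-phase thymidine kinase, read 451.1, 165.5 and 307.2 against 386.7, 353.9 and 104.8, at 0.18 (SE 0.48). Dut, which clears dUTP, spanned 43 to 164.9 with a difference of 0.16. Tyms, which makes thymidylate, was under the filter at 4.8 to 97.9, with both of its highest values in mTERC+ tumours.

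**Figure D2:**
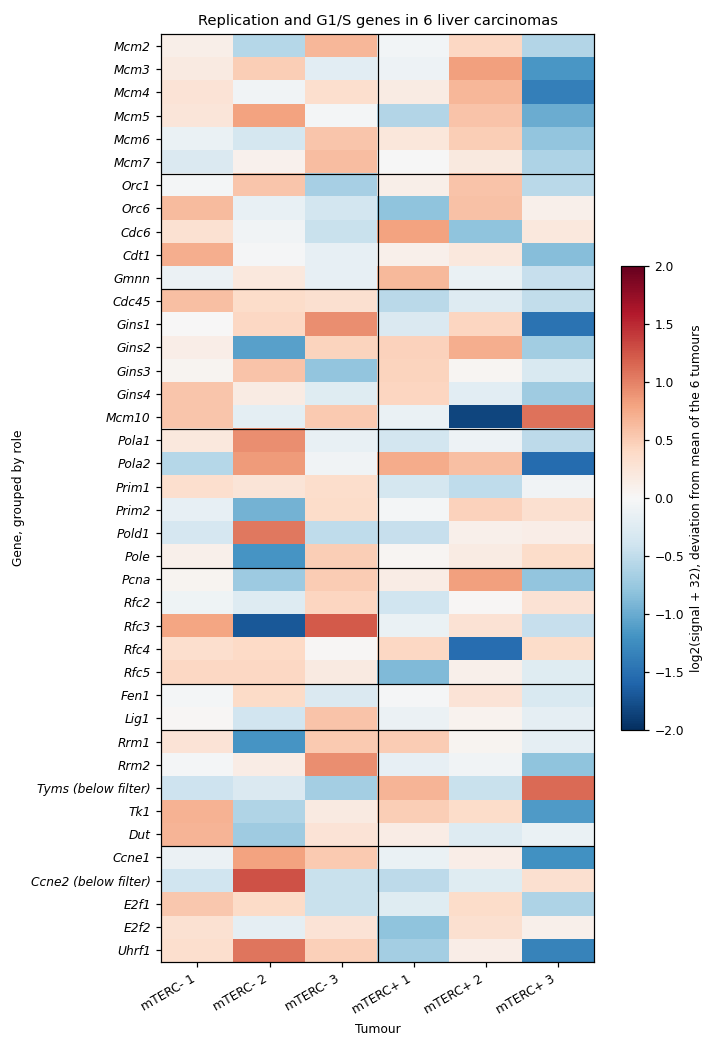
Deviation of each gene (rows, grouped by role) from its mean over the 6 tumours (columns), in log2(signal + 32), red above and blue below. The column of mTERC+ tumour 3 is blue for all of Mcm2 to Mcm7 and for Pcna, while Mcm10 and Tyms are red there.

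Across single tumours, 1 carcinoma stood apart. In mTERC+ tumour 3, 19 of the 38 tested members had their lowest value, or 50%, where 17.1% of all genes did, and its median deviation from the mean over the tumours was -0.51. In the other 5 tumours that median lay between -0.05 and 0.30, and mTERC- tumour 1 held the lowest value of 0 members. Over all genes the median deviation was 0.01 to 0.11 in each of the 6. The count of 19 was 17 with quantile normalization or median centring, 23 with probe sets averaged per gene, and 23 without mTERC- tumour 2 (then 21.8% of all genes). By role, all 6 of Mcm2 to Mcm7 had their lowest value in mTERC+ tumour 3, as did 3 of 4 in the group of G1/S members and Uhrf1. In every other role 1 or 2 tested members did, and polymerase and primase members had a median deviation of 0.03 there. Cdc45, Prim1 and Rfc5 did not have their lowest value there, nor did Rfc2, Cdc6 and Orc6.

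That tumour also bore on the group difference. Without it the mean of 22 of 38 members was higher in mTERC- tumours, and the median log2 difference was 0.04. The median was 0.39 without mTERC+ tumour 2 and 0.34 without mTERC- tumour 2. Macrophage markers summed to 10219 in mTERC+ tumour 3, the lowest of the 6, against 53621 in mTERC+ tumour 2 and 10830 to 27088 in the others, T and NK cell markers to 317 against 545 to 1003, and neutrophil markers to 389, also the lowest. The sums of hepatocyte markers (203265), stellate cell and fibroblast markers (11269) and B and plasma cell markers (773) were highest in that tumour. The hepatocyte sum rests on abundant genes. Alb, Serpina1c and Apoc3 were highest there, Cps1 was lowest, at 4773, and the other listed hepatocyte genes lay between. The part of these cell types in the level of the members was not tested.

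**Figure D3:**
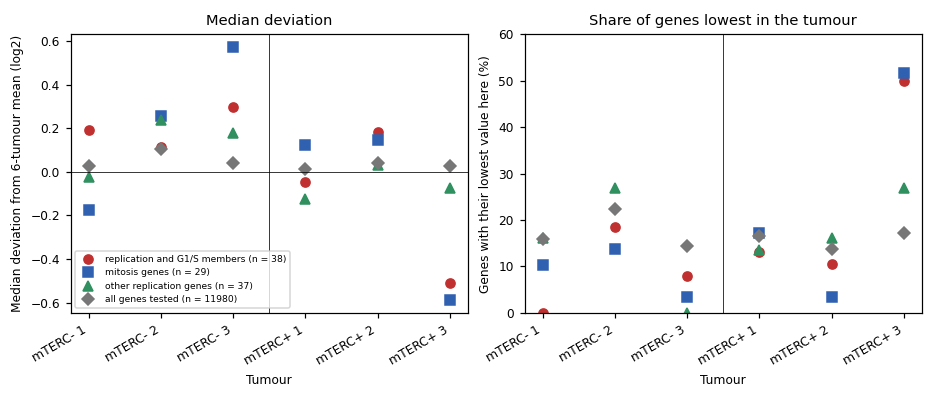
For each tumour (x axis), the median deviation from the 6-tumour mean in log2 (left) and the percentage of genes with their lowest value in that tumour (right), for the tested members, lists of mitosis and other replication genes, and all genes tested. Members and mitosis genes lie lowest in mTERC+ tumour 3, at -0.51 and -0.59, where all genes lie at 0.03. Other replication genes lie at -0.08 there and lowest in mTERC+ tumour 1, at -0.12.

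Other genes of the same processes, from named lists, were read in the same fit. Of 29 tested mitosis genes 23 were higher in mTERC- tumours by their means, and 15 were lowest in mTERC+ tumour 3. Of 37 other replication genes 26 were higher (median 0.08). In mTERC+ tumour 3, 10 of them (27%) were lowest, beside 17.1% of all genes. As many, 10, were lowest in mTERC- tumour 2, beside 22.3% of all genes. Of 29 other G1/S regulators 18 were higher (median 0.39). None of these genes passed over all genes in limma (0 of 95 at an adjusted p below 0.05, 1 at an unadjusted p below 0.05). The groups did not overlap in 3 other G1/S regulators that were higher and 2 that were lower (Rb1 and Ccnd1), in 1 other replication gene each way, and in 1 mitosis gene that was higher, beside 5.75% and 4.39% of all genes. The 1 gene with an unadjusted p below 0.05 was Cks1b, which helps to destroy the inhibitor p27, at 543.2, 454 and 507.1 against 274.3, 240.7 and 198.7, with no overlap (log2 difference 0.99, SE 0.34). Dck, the deoxycytidine kinase that salvages nucleosides, read 132.3, 176.7 and 143.8 against 78, 73.8 and 84.2, also with no overlap (0.72, SE 0.40). Pole3, a small subunit of polymerase epsilon, lay lower without overlap, at 207.1, 24.3 and 244 against 273.6, 316.9 and 291.4 (-1.07, SE 0.52).

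The second comparison set the TRF2DBDM pool against the GFP pool of virus-infected liver. With 1 array per group there was no replicate check and no test. Of the 37 members on that array, 33 reached the median signal on at least 1 of the 2 arrays; Orc1, Cdc6, Tyms and Ccne2 did not. By the probe set with the highest mean, no member (0 of 33) was 2-fold higher or lower in signal + 32. Of all genes, 4.62% were past 2-fold upward and 2.90% downward. Of the 33, 13 were higher with TRF2DBDM, beside 52.0% of all genes, and 20 were lower, with a median log2 ratio of -0.08 beside 0.02 over all genes.

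Within the helicase core 3 genes were higher and 3 lower with TRF2DBDM, while both Okazaki fragment genes were lower. Ccne1 had the highest ratio, at 504.1 with TRF2DBDM against 294.2 with GFP, or 1.64-fold. Pcna read 2306.1 against 1724.6 and Mcm3 310.4 against 221.7, while Mcm2 read 187.3 against 256. Mcm6 and Mcm7 hardly differed, at 424.2 against 438.7 and 987.5 against 976.4. The 3 origin-loading genes compared were all slightly higher: Cdt1 read 579.4 against 465.6, Orc6 162.6 against 126.2 and Gmnn 174.2 against 161.8.

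The lowest ratio was that of Tk1, at 211 against 362.4, or 1.62-fold lower. Gins4 followed at 157.4 against 260.5 and Gins1 at 58.7 against 103.8, at log2 ratios of -0.63 and -0.58. Rfc5 read 207.1 against 299.9, Rrm1 502.7 against 669.4, Fen1 591.1 against 799.2 and Cdc45 65.6 against 97.3. The second probe set of Fen1 went the other way, at 365.6 against 307.8. Uhrf1 read 102.5 against 137.4 by the probe set with the highest mean in liver. By the probe set used for the tumours it read 68.8 against 161.2, a log2 ratio of -0.94 and larger in size than that of Tk1. In signal, with nothing added before log2, that probe set was more than 2-fold lower. Rrm2 read 529.4 against 724.2 by the probe set with the highest mean, but its probe sets had log2 ratios of -0.43, -0.19 and 0.33.

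**Figure D4:**
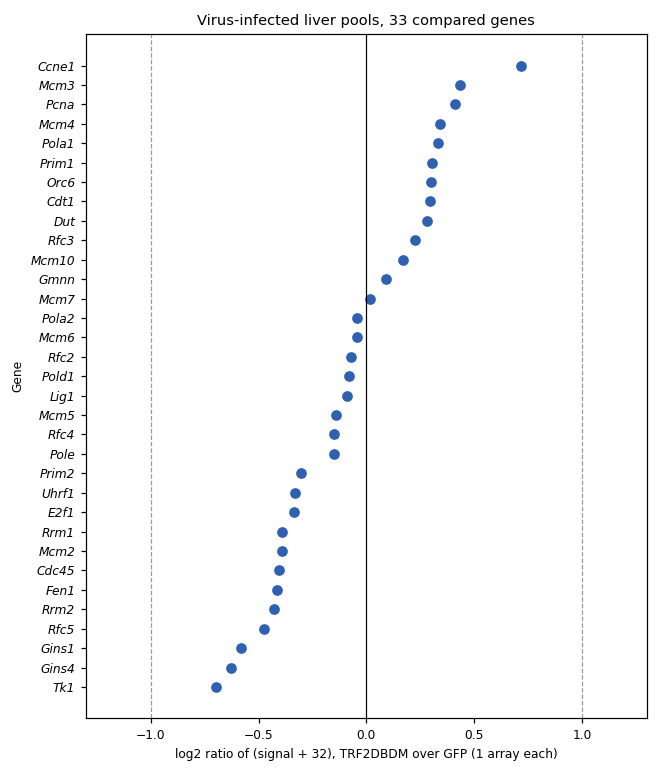
Log2 ratio of (signal + 32), TRF2DBDM over GFP (x axis, 1 array of pooled RNA each), of the 33 compared genes; dashed lines mark 2-fold. All points lie inside those lines, from Tk1 at -0.70 to Ccne1 at 0.72.

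In the same pools, mitosis genes leaned lower, with 28 of 35 below GFP, beside 3731 of all 7789 genes. At least 2-fold lower were 3 of them, beside 2.90% of all genes. These were Tpx2 at 97.6 against 316.2, Plk1 at 530.6 against 1291.7 and Kif23 at 45.4 against 129.7. With 1 array per group these counts were not tested. Of 34 other replication genes 16 were higher and 18 lower, and Pold4, a small subunit of polymerase delta, was at 99.6 against 479.9. Among other G1/S regulators Foxm1, a factor that drives mitotic genes, was at 65.5 against 196.5, and the inhibitor Cdkn1c at 318.6 against 82.7. The pools also differed in hepatocyte markers, which summed to 65269 with TRF2DBDM and 43265 with GFP, and in macrophage markers, at 2696 and 1764; their part in the ratios was not tested.

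Levels in the livers and in the tumours come from tables that were scaled separately on different arrays, so they were set side by side only as ranks within each array, over the 22690 probe sets on both. For 32 tested members the same probe set was on both arrays. In 16 of them (50%) both infected livers ranked the gene above all 6 tumours, as in 13.9% of 8560 genes, and in 0 both ranked it below, against 15.9%. Rrm1 lay at percentile 91 and 93 in the livers and at 41.1 to 78.6 in the tumours. Rfc2 lay at 92.2 and 92.1 against 78.8 to 86.3, and Mcm7 at 95.5 and 95.3 against 83.2 to 91.7.

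Other members overlapped. Pcna was at 98.1 with TRF2DBDM and 97.5 with GFP, against 93.6 to 97.9, and Mcm6 at 89.5 and 89.3 against 83.2 to 92.4. Prim1 lay at 50.9 and 56.4 against 46.6 to 68. Of 27 mitosis genes with the same probe set on both arrays, 25 ranked above all tumours in both livers. Tissue, virus, pooling of RNA, array type and any difference in age, HBs transgene or mTERC genotype cannot be told apart here. Uninfected liver was not analysed here.

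**Figure D5:**
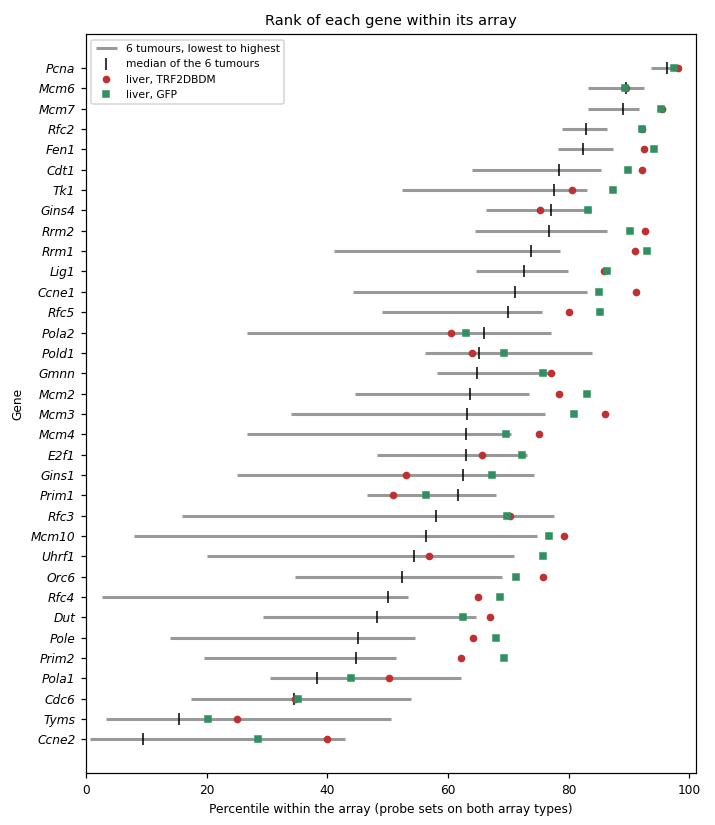
Percentile of each gene among the probe sets on both array types (x axis): grey bars span the 6 tumours with their median, and points mark the livers given TRF2DBDM (red) or GFP (green) virus. For 16 genes, among them Rrm1, Rfc2 and Mcm7, both points lie to the right of the bar.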

How the data were processed

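Biotin-labelled cRNA from 6 microg of total RNA per array was hybridised to Affymetrix arrays, per the labels. The deposited values are MAS5 signals per probe set, a linear intensity, per the submitters' processing notes. The sources used here do not give the MAS5 version or scaling target. The mean without the lowest and highest 2% was 150 on each array, and the authors' scaling was kept. A scaling to one mean hides a change that most genes share.

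Gene names came from the platform annotation, using probe sets with 1 symbol. The probe set with the highest mean stood for a gene. Levels were log2(signal + 32), so fold changes of low genes are understated. For the tumours, 11980 of 18194 genes whose mean level reached the median over probe sets were tested with limma 3.58.1 in R 4.3.3 (variance trend, two-sided, Benjamini-Hochberg over all genes tested, threshold 0.05). With simulated data of 11980 genes, 44 of 100 genes set to change 4-fold were called and 72 of 100 set to 8-fold. There were 4 false calls among the genes not set to change. Each simulated gene varied independently with its own spread, so variation that genes share within a tumour was not simulated. For the virus pair, 7789 genes that reached the array median on either array were compared by ratio. The number of arrays limits the precision.

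Named with every value were Mcm2 to Mcm7, Pcna, in each role the 2 members with the highest mean and the 2 with the smallest p, and those without overlap. Some further members and other listed genes are named by value. Members and lists were chosen with earlier results of these data known. Sequences are from RefSeq (GRCm38.p6). Terc and Trp53 were not analysed here.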

Additional observations from a re-analysis of the deposited data

How the results depend on the processing

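No member passed in limma under any of the 16 alternatives (adjusted p from 0.527 to 0.999 for Uhrf1, the member with the smallest p in the full set). No member was 2-fold apart in the virus pair under its 7 alternatives, each with a single value per gene. Single probe sets were not counted there. The probe set of Uhrf1 used for the tumours read 68.8 with TRF2DBDM and 161.2 with GFP. In signal, with nothing added before log2, it was thus more than 2-fold lower. The members' median log2 difference between the tumour groups stayed above 0 in all 16, between 0.04 without mTERC+ tumour 3 and 0.39 without mTERC+ tumour 2. The median ratio in the virus pair stayed below 0, between -0.19 with median centring, where all genes had a median of -0.09, and -0.04 with quantile normalization. Signs of single members were less stable: 24 of 38 changed sign under at least 1 alternative in the tumours and 5 of 33 in the pair. Over all genes, the 1 call became 0 with median centring, a pseudocount of 1, the filter at percentile 75, the mean of probe sets, no variance trend and a Y-linked covariate (3 of 4 planned genes had a probe set with 1 symbol). With each tumour left out it was 0 to 6. With the filter at percentile 75, 3 members of 24 did not overlap, and without mTERC+ tumour 2, 9 of 38. The share over all genes is not given for these settings. These counts therefore cannot be read against the 5.75% of the full set, least of all with a tumour left out. The counts for mTERC+ tumour 3 under other settings were added after seeing the data. The labels name different animals and pair no mTERC- with an mTERC+ tumour, so no paired analysis was made. They give no replicate numbers, and tumours were numbered within each group in the order of the series.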

Other observations

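Probe sets of one member often went different ways. Of the 18 tested members with more than 1 probe set at or above the median level, 9 had the same sign of the mTERC- against mTERC+ difference in each of them. Mcm3 had 5 such probe sets, with log2 differences from -0.75 to 0.92, and Mcm7 had 4, from -0.40 to 0.89. The 2 probe sets of Gins1 gave 0.90 and 0.92, and those of Prim1 0.62 and 0.53. One further probe set of Rfc4 read 98.3, 79.4 and 192.1 in mTERC- and 22.3, 8.4 and 5.1 in mTERC+ tumours, with no overlap and a difference of 1.77, where the probe set used above gave 0.50. It was singled out after its values were seen and was not tested.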
